A study of Mus musculus with 24 samples.

Results

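CD11c-negative adipose tissue macrophages (CD11c- ATM) of obese mice were compared with those of lean mice across all genes measured. The comparison used 5 of the 24 arrays of the series, chosen by their sample titles: 3 arrays of CD11c- ATM from mice on a high-fat diet (HFD, 60% fat) and 2 from mice on a normal diet (ND). All mice were male C57Bl/6 animals, and the cells were sorted alive by flow cytometry from collagenase-digested gonadal fat. Each array held a pool: the ND arrays were 2 pools of cells from 4 mice, and each HFD array was a pool of 3 to 4 mice. P-values therefore measure the spread between arrays, taken over all 24 of the series, and not between single animals. Whether each ND pool held 4 mice, or 4 mice were used for both, is not stated in the labels. Neither the age of the mice, the length of feeding in the HFD group, nor the surface markers used beside CD11c is given in the sources used here. The other groups serve below as measured background. They are CD11c+ ATM of HFD mice (3 arrays), adipose tissue dendritic cells (ATDC) of ND (2) and HFD mice (3), and preadipocytes (PA) of ND (3) and HFD mice (3). In the weight loss groups (WL), mice had been on the HFD for 12 weeks and off it for 8 weeks, with CD11c- ATM on 2 arrays and CD11c+ ATM on 3.

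Macrophages of lean fat are largely long-lived resident cells that clear dying cells and handle iron and lipid. In obesity, monocytes enter the tissue and many macrophages come to carry CD11c, an integrin subunit encoded by Itgax, and to take up lipid from dying fat cells. Macrophages without CD11c are usually treated as the resident-like population of fat. Preadipocytes are the fibroblast-like cells that lay down most of the collagen of the tissue.

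Values are deposited log2 expression, on which 1 unit is a doubling, and differences are HFD minus ND, given as the estimate ± SE of a limma fit over 24 arrays. A gene was called at an adjusted p under 0.05 (Benjamini-Hochberg over 15496 tested genes). The macrophage label held on all 5 arrays. All 14 tested macrophage identity genes lay above the array median, and their median level was 10.31 and 10.33 on the ND arrays and 10.39, 10.24 and 10.25 on HFD 1, 2 and 3. Cd68, a lysosomal glycoprotein of macrophages, read 11.13 and 11.06 on ND and 11.19, 11.12 and 11.10 on HFD. Across genes, the ND arrays correlated at r = 0.961 with each other, HFD arrays at 0.948 to 0.961 with each other, and ND with HFD arrays at 0.931 to 0.954, as a description over genes that share each library.

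The test called a small set of genes, most of them with large differences. In all, 95 genes were called, 0.613% of those tested, of which 68 (0.439%) were higher in HFD and 27 (0.174%) were lower. At an unadjusted p under 0.05, 1332 genes were counted, 792 higher and 540 lower. No array of either group crossed into the other for any of the 95 called genes, and the groups did not overlap for 27.1% of all tested genes. Of the called genes, 94 differed by more than 2-fold, and 50 of those higher and 12 of those lower differed by more than 4-fold. In simulated data of the same design, 16 of 50 genes changed by 1 log2 unit were called, 38 of 50 at 2 units and 50 of 50 at 4. Smaller differences were thus often missed, and a list without calls may still hold them. The median difference over all tested genes was 0.014.

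The number of calls rested on single arrays and on the pooled estimate of spread. It was 32 without HFD 3, 58 without HFD 1, 176 without HFD 2, 30 without ND 1 and 37 without ND 2. With the spread taken from the 5 compared arrays alone, 3 genes were called: Mmp9, Slc7a13 and Tnip3. The pooled spread takes in groups where some macrophage genes varied more. Adgre1, for example, had SDs of 0.02 (ND) and 0.30 (HFD) in CD11c- ATM and of 1.30 and 1.15 in ND and HFD PA. Its SE in the fit was 0.61, and a miss of such a gene does not show that it was unchanged. In the 24-array fit, 13 genes were called whichever of the 5 arrays was left out: Abcg1, Col1a2, Col3a1, Col6a1, Ctsk, Igf2r, Lum, Mmp12, Mmp9, Pla2g2d, Postn, Pparg and Slc7a13.

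**Figure D1:**
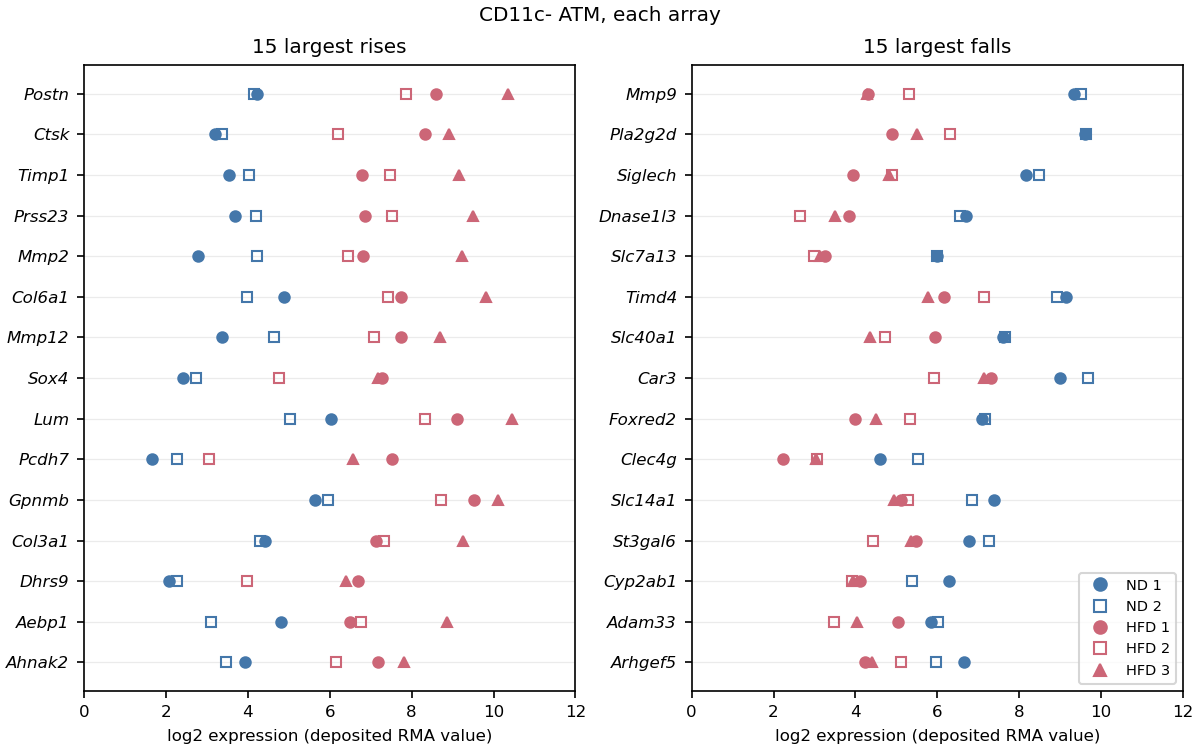
Log2 expression (x axis) of the 15 largest rises and 15 largest falls among the called genes (y axis), with 1 symbol per array for ND 1 and 2 and HFD 1 to 3. HFD symbols lie to the right of both ND symbols for every rise and to the left for every fall; HFD 3 is the right-most symbol for Postn, Timp1, Prss23 and Mmp2.

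The stretches before the start sites of 4 called genes are shown because they hold short words read by factors active in macrophages or in many cell types. They are RefSeq windows of 250 bases on the GRCm38.p6 build, which offered a window for 62 of the 95 called genes (45 higher and 17 lower). Capitals mark the word: TGANTCA, the site of AP-1, for Itgax and Col6a1; GAGGAAGT, a site of the myeloid factor PU.1, here on the opposite strand, for Mmp12; and CACGTG, an E-box, for Siglech.
Itgax, chr7:128129300-128129549, plus strand: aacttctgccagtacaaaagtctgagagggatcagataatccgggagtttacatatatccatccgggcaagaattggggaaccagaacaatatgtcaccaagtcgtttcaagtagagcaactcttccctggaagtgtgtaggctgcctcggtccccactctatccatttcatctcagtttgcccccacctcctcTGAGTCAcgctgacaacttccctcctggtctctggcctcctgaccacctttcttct
Mmp12, chr9:7344147-7344396, plus strand: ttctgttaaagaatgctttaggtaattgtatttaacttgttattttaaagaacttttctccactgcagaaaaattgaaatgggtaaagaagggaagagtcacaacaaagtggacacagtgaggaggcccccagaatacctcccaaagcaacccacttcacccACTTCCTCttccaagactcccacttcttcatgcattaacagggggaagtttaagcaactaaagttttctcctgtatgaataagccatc
Col6a1, chr10:76726045-76726294, minus strand: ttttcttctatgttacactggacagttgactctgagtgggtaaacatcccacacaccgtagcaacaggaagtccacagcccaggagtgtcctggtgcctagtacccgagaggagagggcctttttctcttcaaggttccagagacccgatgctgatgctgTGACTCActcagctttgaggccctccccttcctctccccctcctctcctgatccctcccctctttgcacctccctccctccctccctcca
Siglech, chr7:55767934-55768183, plus strand: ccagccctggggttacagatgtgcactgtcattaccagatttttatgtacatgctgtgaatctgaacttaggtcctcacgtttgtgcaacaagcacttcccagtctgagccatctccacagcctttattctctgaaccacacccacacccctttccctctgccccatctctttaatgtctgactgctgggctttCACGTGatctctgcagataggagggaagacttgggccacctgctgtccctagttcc
The word began at position -56 for Itgax and Siglech, -88 for Mmp12 and -90 for Col6a1, counted back from the start site.

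Some genes have several windows, and a gene was counted when any of its windows held the word on either strand. The AP-1 word was counted in 11.1% of the higher genes, 0% of the lower genes, 6.1% of all tested genes and 7.82% of all genes with a promoter window. The PU.1 word was counted in 6.67%, 0%, 2.97% and 2.79%, and the E-box in 8.89%, 11.8%, 9.15% and 6.86%. The TATA word, TATAAA, was counted in 22.2% of the higher and 17.6% of the lower genes, against 9.37% of all tested genes and 14.3% of all genes with a window. These shares rest on 5 higher genes with the AP-1 word, 3 with the PU.1 word and 10 with the TATA word, and describe letters only.

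Genes of lipid-handling macrophages made up a first part of the rises. The lipid-associated macrophage list is named for cells found around dying fat cells. Of its 22 tested members, 7 rose and 0 fell, with a median difference of 1.01. Of all tested genes, 0.439% were called higher. Without HFD 1, HFD 2, HFD 3, ND 1 or ND 2, the list had 3, 8, 3, 2 or 3 members called. Mmp12, the macrophage elastase, read 3.36 and 4.64 on the ND arrays and 7.73, 7.08 and 8.69 on the HFD arrays. It rose by 3.84 ± 0.50 (adjusted p = 0.00057), and every HFD array lay more than the whole spread of either group above ND. Gpnmb, a glycoprotein of lysosome-rich macrophages, read 5.63 and 5.96 on ND and 9.53, 8.72 and 10.10 on HFD, a rise of 3.65 ± 0.70 (adjusted p = 0.018). Lpl, the lipase that frees fatty acids from lipoprotein triglycerides, was already high on ND at 9.31 and 9.56 and read 11.22, 10.25 and 11.00 on HFD (1.39 ± 0.29, adjusted p = 0.028). Atp6v0d2, a subunit of the lysosomal proton pump, went from 4.75 and 6.66 to 9.31, 7.79 and 9.01 (3.00 ± 0.67, adjusted p = 0.046). Cd9, a tetraspanin, read 4.93 and 4.98 on ND and 8.54, 6.79 and 8.21 on HFD (2.89 ± 0.48, adjusted p = 0.006). The second probe row of Cd9 differed by -0.07, so its rows disagree. In the same list Trem2, a lipid-sensing receptor, read 7.97 and 7.56 on ND and 9.41, 8.96 and 9.10 on HFD. The difference of 1.39 ± 0.75 missed the threshold (adjusted p = 0.67). Trem2 was tested against a spread that also takes in the other groups. Its signalling adaptor Tyrobp differed by 0.14 ± 0.56 (adjusted p = 0.99).

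Itgax itself was a member of this list. It read 3.01 and 2.76 on the ND arrays, both below the array median, and 6.40, 4.93 and 7.07 on HFD 1, 2 and 3. The rise was at least 3.02, taken with each ND value raised to its array median, and 3.25 ± 0.67 in the fit (adjusted p = 0.028). The sort had removed cells with CD11c protein at the surface, and the mean of HFD CD11c+ ATM was 8.53 ± 0.72 (SD, n = 3), above each CD11c- array. HFD 2 was the lowest and HFD 3 the highest of the obese arrays. Itgax, Gpnmb and Lpl missed the threshold without HFD 1, HFD 3, ND 1 or ND 2, with adjusted p up to 0.22, 0.17 and 0.27. Atp6v0d2 missed it without HFD 1, HFD 3 or ND 1 (up to 0.57), and Cd9 without ND 1 or ND 2 (up to 0.088).

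A cholesterol exporter, a nuclear receptor of lipid genes and a carrier of lysosomal enzymes rose as well. Abcg1, which moves cholesterol out of the cell to high-density lipoprotein, read 3.95 and 4.08 on ND and 7.36, 6.52 and 6.82 on HFD. It rose by 2.88 ± 0.35 (adjusted p = 0.00033), and the rise was 2.92 without HFD 3. Pparg, the nuclear receptor that controls lipid storage genes, read 5.71 and 6.20 on ND and 8.27, 7.75 and 8.12 on HFD (2.09 ± 0.29, adjusted p = 0.0011). Igf2r, the receptor that carries enzymes with mannose 6-phosphate to the lysosome, read 3.84 and 3.77 on ND and 7.15, 5.97 and 7.56 on HFD (3.09 ± 0.47, adjusted p = 0.0029). All 3 genes were called whichever array was left out. Of the lipid uptake, storage and efflux list, 2 of 23 members rose (Lpl and Abcg1) and the median difference was 0.17. The share called higher among all tested genes was 0.439%. Cd36, the fatty acid receptor, read 10.93 and 10.80 on ND and 11.00, 10.66 and 10.82 on HFD, and Fabp4, a fatty acid carrier, differed by 0.34 ± 0.22 (adjusted p = 0.79). Fabp5, a related carrier, read 8.90 and 9.43 against 10.41, 9.87 and 10.20 and missed the threshold (0.99 ± 0.25, adjusted p = 0.093). Of 37 lysosomal genes, 2 rose, Ctsk and Atp6v0d2, with a median difference of 0.12.

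Several receptors and regulators of inflammation rose. Tnip3, a partner of the NF-kappaB inhibitor A20, read 4.80 and 5.02 on ND and 8.02, 7.73 and 7.83 on HFD (2.95 ± 0.56, adjusted p = 0.018). Its 3 HFD values lay close together. Ptger4, a receptor for prostaglandin E2, read 6.06 and 5.70 against 7.71, 7.31 and 7.34 (1.57 ± 0.31, adjusted p = 0.022). Clec4e, the receptor Mincle for microbial and dead-cell glycolipids, read 3.99 and 3.67 against 5.55, 4.73 and 5.81 (1.53 ± 0.28, adjusted p = 0.014). Kcnn4, a calcium-activated potassium channel, read 4.74 and 3.99 against 7.39, 6.26 and 7.04 (2.53 ± 0.55, adjusted p = 0.04). Il1r1, the receptor of interleukin 1, read 4.89 and 3.01 (the latter below the array median) against 6.69, 6.26 and 7.96 (3.02 ± 0.62, adjusted p = 0.028). HFD 3 was its highest array, and its mean was 9.46 in ND PA and 9.85 in HFD PA against 5.10 in HFD CD11c+ ATM, so it was one of the rises brighter in preadipocytes. Il1rn, the antagonist of that receptor, read 4.77 and 4.25 against 6.79, 6.28 and 6.85 and missed the threshold (2.13 ± 0.50, adjusted p = 0.061). Of 25 inflammatory mediators, 1 was called, Il1b, against 0.613% of all tested genes. Il1b rose and missed the threshold without HFD 1, HFD 2, HFD 3 or ND 2 (adjusted p up to 0.44). The interleukin genes Il1a and Il6 differed by -0.78 ± 0.74 (adjusted p = 0.9) and -1.07 ± 0.56 (adjusted p = 0.65). Tnip3, Ptger4, Clec4e and Kcnn4 missed the threshold without HFD 1, HFD 3, ND 1 or ND 2, with adjusted p up to 0.17, 0.24, 0.18 and 0.35. Il1r1 missed it without HFD 1, HFD 3 or ND 2, with adjusted p up to 0.4.

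Other rises included Itgav, Adam8, Abi3, Pcdh7, Dhrs9 and Sox4. Itgav, the alpha-v integrin subunit that binds matrix and bridges dying cells, read 6.01 and 6.33 on ND and 8.38, 7.15 and 7.96 on HFD (1.66 ± 0.34, adjusted p = 0.028). Adam8, a membrane metalloprotease of leukocytes, read 4.84 and 4.71 against 7.39, 6.27 and 7.55 (2.29 ± 0.52, adjusted p = 0.046). Abi3, an adaptor of the actin-regulating complex, read 3.44 and 3.51 against 5.19, 5.53 and 5.01 (1.77 ± 0.31, adjusted p = 0.011). Pcdh7, a protocadherin, read 1.67 and 2.27 on ND and 7.51, 3.05 and 6.58 on HFD (adjusted p = 0.032), with HFD 2 also below its array median. Dhrs9, a retinol dehydrogenase, read 2.07 and 2.28 against 6.70, 3.97 and 6.40 (adjusted p = 0.018). Sox4, a transcription factor, read 2.41 and 2.74 against 7.28, 4.77 and 7.18 (adjusted p = 0.0045). Both ND arrays lay below the array median for Pcdh7, Dhrs9 and Sox4, whose rises were at least 2.60, 2.57 and 3.30 (3.74 ± 0.79, 3.51 ± 0.67 and 3.83 ± 0.61 in the fit). The second probe rows of Sox4 and Itgav differed by 2.06 and 0.87. For Pcdh7, Dhrs9 and Sox4, HFD 2 lay well below HFD 1 and HFD 3. Their means in HFD CD11c+ ATM were 7.59, 7.74 and 7.42. The lipid-associated macrophage list was also lowest on HFD 2 among the HFD arrays, with median levels of 9.47, 8.84 and 9.60. The mast cell list moved the same way over the arrays: 1 and 1 of its 9 tested genes lay above the array median on ND, and 7, 2 and 5 on HFD 1, 2 and 3. Its protease Cpa3 read 2.96 and 2.98 on ND and 8.43, 2.29 and 6.25 on HFD, and Mcpt4 read 1.93 and 2.72 against 7.74, 1.56 and 5.91. No mast cell gene was called by limma, 2 had an unadjusted p under 0.05, and the part of these transcripts in the rises was not tested. Itgav, Adam8, Pcdh7 and Dhrs9 missed the threshold without HFD 1, HFD 3, ND 1 or ND 2 (adjusted p up to 0.27, 0.29, 0.29 and 0.16), Abi3 without either ND array (up to 0.12), and Sox4 without ND 1 (0.083).

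Genes of the extracellular matrix and its proteases also rose. Of the collagen and extracellular matrix list, 9 of 39 tested members rose and 0 fell, with a median difference of 1.82. At an unadjusted p under 0.05, 31 were higher. Among all 15496 tested genes, 0.439% were called higher and 792 were higher at that unadjusted p. Of the matrix proteases and inhibitors, 5 of 29 rose and 1, Mmp9, fell. Timp1, the secreted inhibitor of metalloproteases, read 3.55 and 4.03 on ND and 6.79, 7.47 and 9.16 on HFD (4.02 ± 0.65, adjusted p = 0.0046). Mmp2, gelatinase A, read 2.79 (below the array median) and 4.23 against 6.81, 6.44 and 9.24 (3.99 ± 0.76, adjusted p = 0.018). Mmp14, the membrane protease that activates it, read 4.65 and 3.59 against 6.31, 6.03 and 8.49 (2.82 ± 0.59, adjusted p = 0.03). Prss23, a serine protease, read 3.70 and 4.21 against 6.85, 7.52 and 9.49 (4.00 ± 0.66, adjusted p = 0.0054). Col6a1, a chain of the beaded-filament collagen VI, read 4.88 and 3.98 against 7.75, 7.42 and 9.82 (3.90 ± 0.54, adjusted p = 0.0011). Its partner chain Col6a2 read 4.31 and 3.32 against 5.73, 5.71 and 7.80 (2.59 ± 0.51, adjusted p = 0.022). Bgn, the proteoglycan biglycan, read 7.30 and 6.73 against 9.27, 9.43 and 11.00 (2.89 ± 0.53, adjusted p = 0.014). Serpinh1, the collagen chaperone, read 4.52 and 3.93 against 5.71, 6.08 and 7.58 (2.23 ± 0.47, adjusted p = 0.03). In each of these 8 genes HFD 3 was the highest array. The second probe rows of Prss23 and Col6a1 differed by 2.11 and 2.19. Timp1 and Prss23 missed the threshold without ND 1 (adjusted p = 0.093 and 0.1), and Mmp2 without HFD 3 (0.08) or ND 1 (0.27). Mmp14, Col6a2, Bgn and Serpinh1 missed it without HFD 3 (0.12, 0.068, 0.068 and 0.14), ND 1 or ND 2.

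The matrix genes moved with markers of preadipocytes, and most strongly on HFD 3. The preadipocyte and fibroblast list had a median level of 6.09 and 5.44 on the ND arrays and 6.79, 6.92 and 8.63 on HFD 1, 2 and 3, and 15 or 16 of its 16 tested genes lay above the array median on every array. Of these 16, 4 were called higher, against 0.439% of all tested genes, and the median difference was 1.97 (1.22 without HFD 3). This list shares genes with the collagen and extracellular matrix list, among them Col1a2, Col3a1 and Lum. Their joint movement is therefore in part that of the same genes. Pdgfra, a surface receptor that defines preadipocytes, read 3.97 and 3.59 on ND and 6.31, 4.32 and 8.16 on HFD, and missed the threshold (2.49 ± 0.82, adjusted p = 0.25). In bulk samples, more cells of a type and more RNA per cell cannot be told apart, and the part of preadipocytes in the matrix rises was not tested. With HFD 3 left out, the median difference of the collagen and extracellular matrix list was 1.14 and 6 of its genes were called. Postn, Lum, Col1a2, Col3a1 and Col6a1 were then still called.

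Genes were therefore sorted by the other arrays of obese mice, a split chosen after the values were seen and described without a test. Macrophage genes were also read in HFD PA: Adgre1 had a mean of 7.30 there against 10.51 in HFD CD11c+ ATM, and C1qb 8.10 against 11.01. Of all tested genes, 864 were over 2 log2 units brighter in HFD PA than in HFD CD11c+ ATM, and 29 of them were called higher and 0 lower (3.36% called). HFD 3 was the highest of the 5 arrays for 85% of the 864 genes, against 23.2% of all tested genes. Their median level was 3.65 and 3.50 on ND and 3.90, 3.79 and 5.18 on HFD 1, 2 and 3. Without HFD 3, their median difference went from 0.59 to 0.20, and 8 of them were called. A further 633 genes were over 2 units brighter in HFD CD11c+ ATM than in HFD PA, with 15 called higher and 2 lower (2.69% called). HFD 3 was the highest array for 14.5% of these 633 genes, and their median difference was 0.10, or 0.13 without HFD 3. Of these genes, 2 were called without HFD 3.

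**Figure D2:**
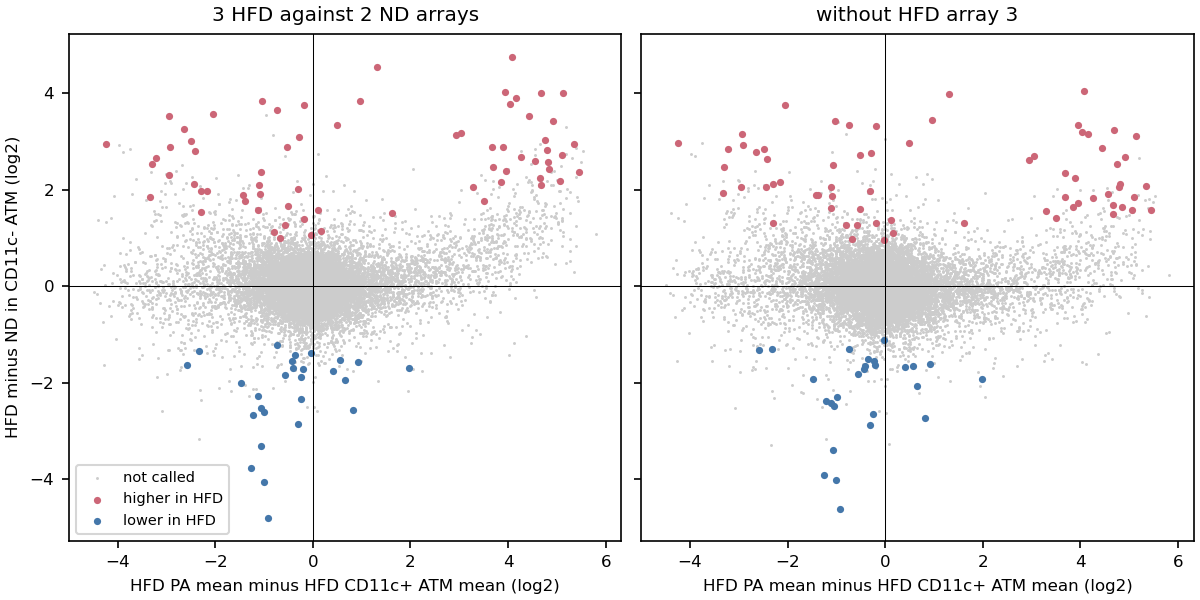
Difference between HFD and ND in CD11c- ATM (y axis, log2) against the brightness of HFD PA over HFD CD11c+ ATM (x axis, log2), 1 point per tested gene, for all 5 arrays and without HFD 3; coloured points are the 68 higher and 27 lower genes called on all arrays. The cloud tilts upward at the right with HFD 3 (median 0.59 for the 864 genes beyond 2) and less without it (0.20).

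Among the 68 rises, 35 were brighter in HFD PA and 33 in HFD CD11c+ ATM; 44.8% of tested genes are brighter in PA. HFD 3 was the highest array in 33 of the 35 and in 9 of the 33. The 35 had median levels of 4.31 and 3.98 on ND and 6.79, 6.21 and 8.73 on HFD, against 5.88 in HFD CD11c+ ATM and 10.12 in HFD PA. The 33 had median levels of 4.14 and 4.64 on ND and 7.39, 6.52 and 7.25 on HFD, against 7.96 in HFD CD11c+ ATM and 5.82 in HFD PA. For 29 of the 33, the mean of HFD CD11c+ ATM lay above that of HFD CD11c- ATM. Without HFD 3, 11 of the 35 and 8 of the 33 were still called. Without HFD 1, 28 of the 35 and 7 of the 33 were, without ND 1, 12 and 5, and without ND 2, 10 and 6.

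The largest falls were in secreted enzymes, a receptor of the Siglec family and an amino acid transporter. Mmp9, gelatinase B, read 9.34 and 9.51 on ND and 4.30, 5.30 and 4.27 on HFD, and fell by 4.80 (SE 0.35, adjusted p = 2e-07), which is 27.8-fold. Pla2g2d, a secreted phospholipase A2 of resting myeloid cells, read 9.61 and 9.64 against 4.90, 6.31 and 5.50 (-4.06 ± 0.53, adjusted p = 0.00057). Slc7a13, an amino acid transporter, read 5.98 and 5.98 against 3.25, 2.98 and 3.14 (-2.86 ± 0.20, adjusted p = 2e-07). Mmp9, Pla2g2d and Slc7a13 were called whichever array was left out. Siglech, a receptor of the Siglec family, read 8.17 and 8.48 against 3.95, 4.89 and 4.82 (-3.77 ± 0.71, adjusted p = 0.018). Siglech is also a marker on the plasmacytoid dendritic cell list, of which 1 of 7 tested genes was called (0.174% of all tested genes were called lower). In that list 3 genes had every HFD array below both ND arrays (13% of all tested genes did), and 4 had a positive difference. The median level of that list was 4.60 and 3.58 on ND and 3.95, 4.89 and 4.16 on HFD, and its part in the fall was not tested. Dnase1l3, a secreted nuclease that digests DNA of dead cells, read 6.71 and 6.55 against 3.83, 2.65 and 3.49 (-3.31 ± 0.51, adjusted p = 0.0032). Siglech missed the threshold without HFD 1, HFD 3, ND 1 or ND 2 (adjusted p up to 0.17), and Dnase1l3 without ND 1 (0.055).

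An iron importer and an iron exporter fell. They were the 2 called genes of 12 tested iron genes, and 0.174% of all tested genes were called lower. Slc40a1, ferroportin, the only known iron exporter of cells, read 7.60 and 7.65 on ND and 5.93, 4.73 and 4.36 on HFD (-2.61 ± 0.57, adjusted p = 0.041). Tfrc, the transferrin receptor that brings iron in, read 8.43 and 8.50 against 7.20, 7.07 and 6.22 (-1.64 ± 0.33, adjusted p = 0.026). The haem oxygenase gene Hmox1 differed by -0.06 ± 0.33 (adjusted p = 0.99), and Slc11a1, the phagosomal metal transporter, by 0.02 ± 0.47 (adjusted p = 1). Slc40a1 missed the threshold without HFD 2, HFD 3, ND 1 or ND 2 and Tfrc without HFD 3, ND 1 or ND 2, with adjusted p up to 0.24 and 0.2.

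Timd4, the receptor for phosphatidylserine on dying cells that marks long-lived resident macrophages, read 9.15 and 8.92 on ND and 6.17, 7.14 and 5.78 on HFD (-2.67 ± 0.55, adjusted p = 0.028). It was the single called gene of 20 tested resident macrophage genes (0.174% of all tested genes were called lower). Of the 20, 16 had every HFD array below both ND arrays (13% of all tested genes did), with a median difference of -0.52. The list's median level was 10.32 and 10.54 on ND and 8.85, 9.96 and 8.84 on HFD, so that HFD 2 lay nearest to ND. Cd163, the haemoglobin scavenger receptor, read 10.53 and 10.70 against 9.21, 10.07 and 9.25 (-1.11 ± 0.57, adjusted p = 0.64). Lyve1, a hyaluronan receptor, read 11.09 and 10.95 against 9.57, 10.85 and 10.08 (-0.85 ± 0.69, adjusted p = 0.87). Folr2, a folate receptor, differed by -0.48 ± 0.60 (adjusted p = 0.94). Timd4 missed the threshold without HFD 1, HFD 3, ND 1 or ND 2 (adjusted p up to 0.24).

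Among the other falls, Car3, a carbonic anhydrase abundant in fat cells, read 9.0 and 9.68 against 7.30, 5.91 and 7.14 (-2.56 ± 0.44, adjusted p = 0.0072), and missed the threshold without ND 2 (0.15). Its mean was 8.91 in ND PA, 8.04 in HFD PA, 7.75 in ND ATDC and 6.27 in HFD ATDC. Car3 was the single called gene of the adipocyte list (0.174% of all tested genes were called lower). Of the 8 tested genes of that list, 0 had a positive difference and 2 were lower at an unadjusted p under 0.05. The median level of the list was 4.46 and 4.48 on ND and 3.71, 3.80 and 3.89 on HFD, and its part in the fall of Car3 was not tested. Foxred2, a flavoprotein of the endoplasmic reticulum, read 7.10 and 7.16 against 3.98, 5.34 and 4.50 (-2.53 ± 0.40, adjusted p = 0.0045). Slc14a1, a urea transporter, read 7.38 and 6.84 against 5.11, 5.28 and 4.94 (-2.0 ± 0.41, adjusted p = 0.028). St3gal6, a sialyltransferase, read 6.77 and 7.27 against 5.49, 4.42 and 5.35 (-1.94 ± 0.35, adjusted p = 0.014). Foxred2 and St3gal6 missed the threshold without either ND array (up to 0.058 and 0.2) and Slc14a1 without HFD 1, HFD 3, ND 1 or ND 2 (up to 0.31).

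Across the 9 groups, ND CD11c- ATM had the highest mean for 25 of the 27 lower genes; 12.8% of all tested genes have their highest mean there, and the lower genes were chosen by their high ND values. Clec4g and Ston1 were the 2 others, with the highest means in ND ATDC (6.37) and HFD PA (5.30). The median level of the 27 was 6.28 and 6.02 on ND, 4.10, 4.42 and 4.36 on HFD, 4.24 in HFD CD11c+ ATM and 3.45 in HFD PA.

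**Figure D3:**
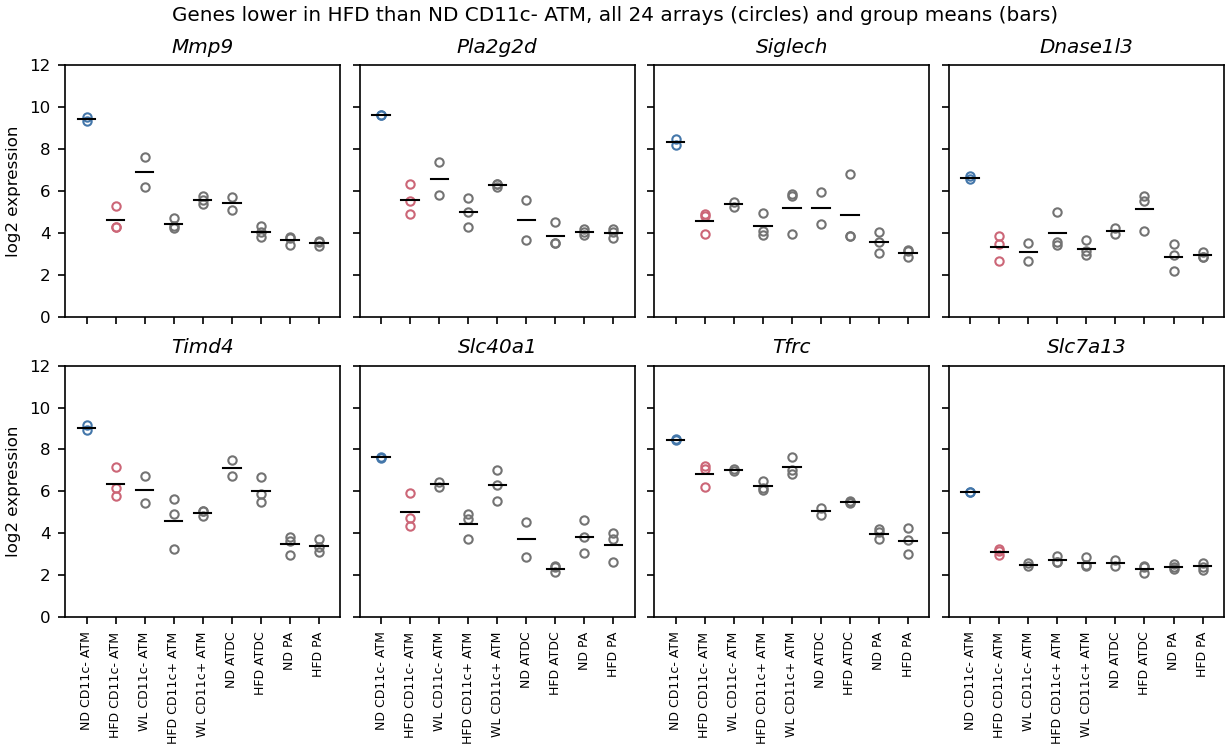
Log2 expression (y axis) of 8 genes that were lower in HFD CD11c- ATM, in the 9 groups (x axis), with circles for arrays and bars for group means. Both ND CD11c- ATM circles are the highest of the panel for Mmp9 and Pla2g2d, and WL CD11c- ATM has means of 6.91 and 6.58 for these genes, between HFD and ND.

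Lists of alternative activation, antigen presentation, chemokines and interferon response held no called gene. The alternative activation list had 0 of 19 genes called by limma, with 3 lower and 0 higher at an unadjusted p under 0.05 and a median difference of -0.30. Arg1, arginase 1, read 6.81 and 7.18 on ND and 5.41, 4.89 and 5.54 on HFD, and missed the threshold (-1.71 ± 0.52, adjusted p = 0.19). Retnla, another gene induced by interleukin 4, differed by -0.21 ± 1.00 (adjusted p = 0.99). The MHC class II list had 0 of 11 genes called (1 lower at an unadjusted p under 0.05), and H2-Ab1 read 11.30 and 11.46 against 11.41, 11.40 and 11.27. Of 25 chemokine ligands 0 were called, with 2 higher and 2 lower at an unadjusted p under 0.05. Ccl4, which attracts monocytes and T cells, read 5.57 and 5.84 against 7.92, 6.57 and 7.05 (1.47 ± 0.36, adjusted p = 0.083). Of 23 interferon response genes 0 were called, with 2 higher and 1 lower at an unadjusted p under 0.05.

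The cell cycle list had 0 of 35 genes called by limma, 16 higher at an unadjusted p under 0.05 and a median difference of 0.89 (0.57 without HFD 3). Among all 15496 tested genes, 792 were higher at that unadjusted p. The median level of the cell cycle list was 5.04 and 4.69 on ND and 5.79, 5.49 and 6.16 on HFD. Ccna2, a cyclin of DNA synthesis and mitosis, read 5.09 and 4.74 against 6.26, 6.71 and 6.57 (1.60 ± 0.41, adjusted p = 0.11), and the proliferation marker Mki67 read 6.75 and 6.32 against 7.79, 6.75 and 7.94 (0.96 ± 0.46, adjusted p = 0.58). The monocyte list had 0 of 11 called, 5 higher at an unadjusted p under 0.05, and median levels of 5.29 and 5.15 on ND against 6.15, 6.66 and 6.94 on HFD. Ccr2, the receptor that brings monocytes into tissue, differed by 0.36 ± 0.73 (adjusted p = 0.97). Genes of dissociation stress had median levels of 8.31 and 8.18 on ND and 7.54, 7.75 and 7.74 on HFD. Of these 28 genes, 0 were called and 3 were lower at an unadjusted p under 0.05 (540 of all 15496 tested genes were). In all, 29 of the 45 lists held no called gene, 17 of them among the 30 pathway lists.

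**Figure D4:**
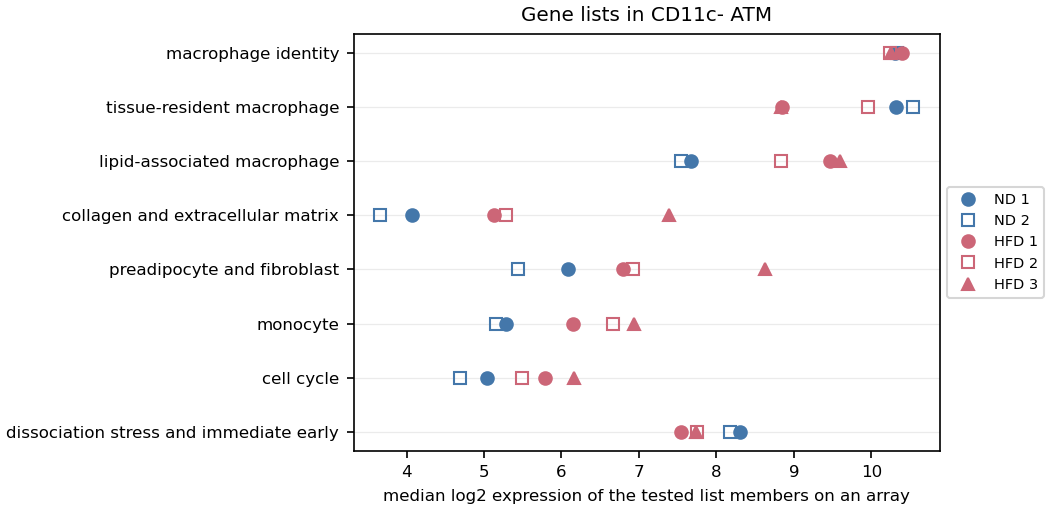
Median log2 expression of the tested members of 8 gene lists (y axis) on each array (x axis), with 1 symbol per array for ND 1 and 2 and HFD 1 to 3. Macrophage identity lies at 10.24 to 10.39 on all 5 arrays, while HFD 3 stands apart at 8.63 for preadipocyte and fibroblast genes.

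The diet difference was compared with that in the other sorted cells by a test of the difference between differences, with arrays taken as independent. Against ATDC it differed for 9 genes (0.0581% of those tested), 2 higher and 7 lower in CD11c- ATM; 5 of the 9 were also called in CD11c- ATM. There were 1 and 4 without ND 1 or ND 2 of CD11c- ATM, 4 and 2 without HFD 1 or HFD 3, 5 without HFD ATDC 1 or HFD ATDC 3, 15 without ND ATDC 2, and 0 with only the arrays compared (1066 at an unadjusted p under 0.05). Mmp9 read 5.41 ± 0.43 (SD, n = 2) in ND ATDC and 4.05 ± 0.26 (SD, n = 3) in HFD ATDC, and its difference between diets was more negative in CD11c- ATM by 3.44 (-3.44 ± 0.50, adjusted p = 0.011). Timp1 read 5.94 ± 0.79 (SD, n = 2) and 4.94 ± 0.95 (SD, n = 3) in ATDC, so that the contrast was 5.02 ± 0.92 (adjusted p = 0.048). Dnase1l3 read 4.10 ± 0.20 (SD, n = 2) and 5.14 ± 0.91 (SD, n = 3) in ATDC, a contrast of -4.35 ± 0.72 (adjusted p = 0.031). Of 10 leave-outs, Mmp9 passed in 8, missing without ND 1 or ND 2 of CD11c- ATM, Dnase1l3 in 4 and Timp1 in 2, with adjusted p up to 0.058, 0.12 and 0.25.

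Against PA, the diet difference differed for 43 genes (0.277%), 26 higher and 17 lower in CD11c- ATM; 10 of them were called in CD11c- ATM, 32 in PA and 1 in both. With each array centred on its own median, 54 genes differed, 21 higher and 33 lower. Without ND PA 1 there were 129, and without ND 1 or ND 2 of CD11c- ATM 13 and 14. The macrophage genes Adgre1, C1qa, C1qb and C1qc were themselves called higher in HFD PA than in ND PA. Adgre1 had a mean of 4.32 in ND PA and 7.30 in HFD PA, and C1qb had 5.52 and 8.10. The part of macrophage transcripts in the PA differences was not tested. Lum, a collagen-binding proteoglycan, was high in PA under both diets (10.92 ± 0.08 and 11.42 ± 0.09, SD, n = 3 each), and its rise in CD11c- ATM exceeded that in PA by 3.27 ± 0.65 (adjusted p = 0.034). Timp1 rose in PA too (6.21 ± 0.93 to 10.12 ± 0.28, SD, n = 3 each), and its contrast with PA was 0.10 ± 0.87 (adjusted p = 0.99). Pla2g2d was low in PA under both diets (4.05 ± 0.13 and 3.98 ± 0.20, SD, n = 3 each), with a contrast of -3.99 ± 0.71 (adjusted p = 0.015). The Mmp9 contrast with PA was -4.64 ± 0.47 (adjusted p = 2.6e-05). Of 11 leave-outs, Mmp9 passed in all 11, Pla2g2d in 9, missing without ND 1 or ND 2 of CD11c- ATM, and Lum in 4, with adjusted p up to 0.087 for Pla2g2d and 0.22 for Lum.

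**Figure D5:**
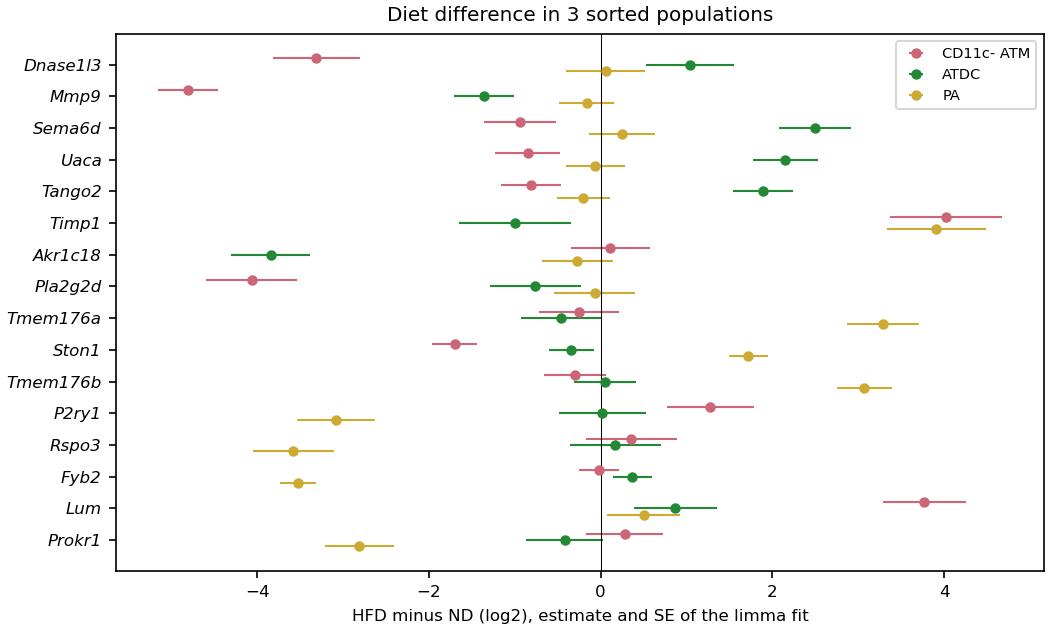
Difference between HFD and ND (x axis, log2, points with the SE of the fit) in CD11c- ATM, ATDC and PA for the genes with the largest contrasts between cell populations (y axis). The CD11c- ATM points stand apart for Mmp9 and Pla2g2d, and the PA points for Fyb2, Rspo3, P2ry1 and Tmem176b.

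The WL arrays give the level of the same genes after the diet was withdrawn, set beside the others without a test. For 33 of the 35 rises brighter in PA, the mean of WL CD11c- ATM lay above that of HFD, and the median of the 35 was 7.84. For the 33 rises brighter in CD11c+ ATM, the WL mean lay between ND and HFD in 17 and above HFD in 15. Abcg1, for example, had a mean of 6.19 ± 0.07 (SD, n = 2) and Pparg of 7.46 ± 0.09 (SD, n = 2) in WL CD11c- ATM, both between the 2 diets, while Mmp12 had 9.65 ± 0.33 (SD, n = 2). Of the 27 falls, the WL mean lay between ND and HFD in 13 and below HFD in 14. Mmp9 (6.91 ± 1.00, SD, n = 2) was among the first and Slc7a13 (mean 2.49, n = 2) among the second.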

How the data were processed

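Per the labels' protocols, 50 ng of RNA from each sorted sample was amplified to cDNA, given a biotin label and read on an array of its own. The authors deposited normalized log2 values for 41345 probe rows, ranging from -0.02 to 13.1. RMA, oligo and limma are named in the submitters' processing notes, with no versions given. RMA forces arrays to a common distribution, which removes any change common to the whole array. Array medians were 2.96 to 3.15.

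Of the rows, 23521 carried 1 gene symbol in the platform annotation, 1814 several and 16010 none here. Each of 22180 genes was represented by its row with the highest mean over 24 arrays, and 15496 genes with at least 2 arrays above the array's own median were tested. A limma 3.58.1 fit (R 4.3.3, lmFit and eBayes, two-sided) held 9 group means and left 15 residual degrees of freedom. The rule named the 15 largest rises and falls among called genes whose groups did not overlap (unnamed gene models passed over), any other called gene with its role, up to 4 called and the first 4 members of each list, and the 5 largest contrasts each way. Genes and lists were chosen with earlier results of these data known. The code was tested on simulated data. Alternatives are in the closing section. Scanner files were not used here and background calls were not made. The number of arrays limits the precision.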

Additional observations from a re-analysis of the deposited data

Results flagged for a closer look

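The diet difference in CD11c- ATM differed from that in another sorted population, by the interaction term of the limma fit, for the genes below; each value is the CD11c- ATM difference minus the other one, on the log2 scale. Against ATDC, the contrast was -4.35 for Dnase1l3, -3.44 for Mmp9 and 5.02 for Timp1, all called in CD11c- ATM. The semaphorin Sema6d (-3.44), Uaca (-3.00) and Tango2 (-2.70) were called higher in HFD ATDC and were not called in CD11c- ATM, where they differed by -0.94, -0.85 and -0.81. Akr1c18 (3.95), an enzyme that inactivates progesterone, had 6.29 in ND ATDC and 2.45 in HFD ATDC, and lay below the array median on all 5 CD11c- ATM arrays.

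Against PA, the contrast was -4.64 for Mmp9, -3.99 for Pla2g2d, -3.43 for Ston1 and 3.27 for Lum, all called in CD11c- ATM. Ston1 was lower in HFD CD11c- ATM (4.93 to 3.23) and higher in HFD PA (3.58 to 5.30). The membrane proteins Tmem176a (-3.54) and Tmem176b (-3.37) rose in PA by 3.29 and 3.07 and differed by -0.25 and -0.30 in CD11c- ATM. Macrophage genes such as Adgre1 also rose in PA (4.32 to 7.30), and their part in these rises was not tested. The contrasts of P2ry1 (4.36), Rspo3 (3.94), Fyb2 (3.50) and Prokr1 (3.09) came with falls in PA. Those falls were -3.08, -3.58, -3.52 and -2.81.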

How the results depend on the processing

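Of the 95 called genes, 0 changed direction under any alternative that tested them. Their groups did not overlap on any array, so leaving out or weighting arrays could not have reversed them. The filters and the prior do not alter the difference itself. The 95 calls became 3 with only the compared arrays, 41 with only the 5 macrophage groups and 206 with array weights, and 30 to 176 when an array was left out. The other settings (trend and robust prior, repeated quantile normalization, median centring, no filter, a stricter filter, mean of all probe rows) gave 71 to 100. The 9 contrasts with ATDC became 0 with only the compared arrays (limma; 1066 at an unadjusted p under 0.05), 4 with no filter and 14 with a stricter one, and 1 to 15 when an array was left out. The 43 contrasts with PA became 234 with array weights and 65 (33 higher, 32 lower) after repeated quantile normalization, and 13 to 129 when an array was left out. Median centring moved the median difference of all genes from 0.014 to -0.091. ND and HFD arrays share replicate numbers 1 and 2, which do not pair them (same-number r of -0.02 and 0.01). Same-numbered arrays of different cells from mice on 1 diet were not checked for pairing. Itgax was lowest on array 2 in HFD CD11c- ATM, HFD CD11c+ ATM and HFD PA (4.93, 7.70 and 4.71), but not in HFD ATDC (8.69). The main fits took all arrays as independent, and the block below used the same numbers across all groups. With the replicate number as a block, there were 49 calls (34 higher, 15 lower; 48 among the 95), 2 contrasts with ATDC and 34 with PA. The causes of these shifts were not tested.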
